A study of Mus musculus with 8 samples.

Results

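Peak-poor windows are 100 kb stretches of the mouse autosomes in which anti-FLAG ChIP-seq found at most 1 peak of the Hedgehog effectors GLI1 and GLI2. Each of the 19 autosomes (build mm9) was tiled in 100 kb windows from its start, and each peak was assigned to the window that holds its centre. Peaks were summed over the 4 peak lists, which are GLI1 replicates 1 and 2 and GLI2 replicates 1 and 2. A window was kept when the sum was 0 or 1 and when it lay wholly between the first peak start and the last peak end of its chromosome. This left 1188 of 24116 eligible windows (4.93%, 95% exact interval 4.66 to 5.21), or 118.8 of 2411.6 Mb. Neighbouring windows were then joined into 728 deserts. Both numbers depend on how many lists are summed: the deserts numbered 1597 and 1840 with GLI1 replicate 1 or 2 left out, and 1076 and 1706 with GLI2 replicate 1 or 2 left out. The windows were chosen by the peak counts of all 4 lists, so the counts, lengths and places below describe the choice and carry no test.

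The embryonic stem cells, of the female mouse line F1-2.1, all carried the Tet-on transactivator rtTA and a stable transgene for GLI1-3xFLAG or GLI2-3xFLAG under tetracycline response elements. They had been grown on irradiated feeder fibroblasts, which were settled away at harvest, so a remainder of feeder chromatin is possible and was not measured. Both groups were undifferentiated (day 0) and had received 1 µg/mL doxycycline, which turns the transgene on, with 100 nM SAG, a Smoothened agonist, for 72 hours. The GLI1 group and the GLI2 group each had 2 ChIP libraries, which the labels call biological replicates. The labels do not say whether a group was 1 clone or several. The factors were tagged and expressed from transgenes, and no library of untagged cells was analysed here.

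GLI1 and GLI2 bind DNA through zinc fingers and carry Hedgehog signals into the nucleus. Without ligand the receptor Patched holds Smoothened in check. Once Smoothened is active, GLI2 acts mainly as the primary activator, and GLI1 is itself a target gene that reinforces the response. Binding sites of such factors usually cluster around promoters and enhancers, and mammalian chromosomes also hold long stretches with few genes, as well as clusters of duplicated genes and repeats where short reads are hard to place. No genome or gene annotation of mm9 was at hand, so genes, sequence, assembly gaps and alignability in these windows were not analysed here, and no sequence is shown.

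The lists differed in length and in calling. Over the eligible windows they held 40597 peaks for GLI1 replicate 1, 52758 for GLI1 replicate 2, 25347 for GLI2 replicate 1 and 46100 for GLI2 replicate 2, or 1.68, 2.19, 1.05 and 1.91 peaks per window. Read depth is unknown, since the files give no read counts. Calling differed too: file names in the labels carry s50 in replicate 1 and s20 in replicate 2, with 1e-4 for both GLI1 lists and 1e-5 for both GLI2 lists. Intervals on shares of windows cover counting error only.

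A window without any peak was rare over the lists together but common in each list alone. The share of eligible windows without a peak was 21.2% in GLI1 replicate 1, 16.9% in GLI1 replicate 2, 36.9% in GLI2 replicate 1 and 18.2% in GLI2 replicate 2. The shortest list thus left the most windows empty. Over all 4 lists the median window held 6 peaks, the mean was 6.83 and the fullest window held 29. Among the 1188 members, 533 held no peak in any list and 655 held a single one. Just outside the threshold stood 1196 windows with 2 peaks and 1971 with 3. The histogram of peaks per window falls from its mode at 5 peaks to 655 windows with 1 peak, and then to 533 windows with none.

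**Figure D1:**
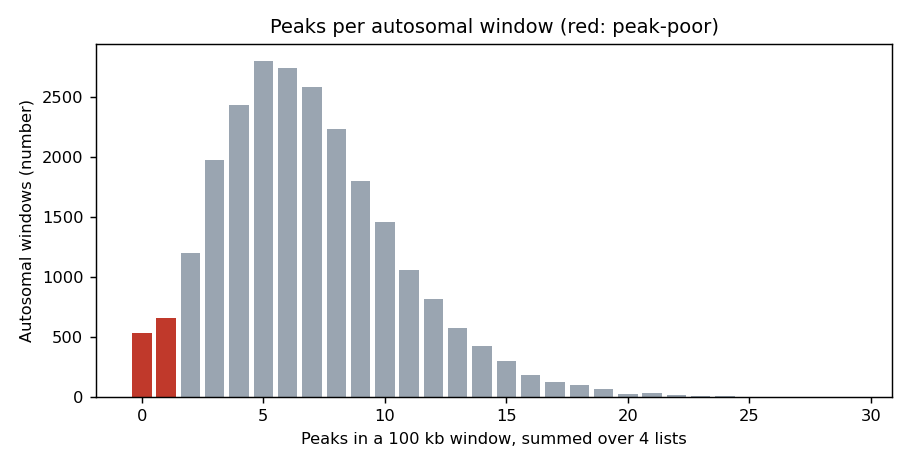
Number of autosomal 100 kb windows (vertical axis) by the number of peaks they hold over the 4 lists (horizontal axis); red bars are the peak-poor windows. The 2 red bars hold 533 and 655 windows, against 1196 windows with 2 peaks.

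Most deserts were short, yet a few long ones held much of the peak-poor sequence. Of the 728 deserts, 608 were a single window, and these made up 51.2% of the members. Another 98 deserts had 2 to 4 windows and held 236 windows. The remaining 22 deserts were 500 kb or longer, here called long deserts, and held 344 windows, or 29.0% of the members. Long deserts numbered 34 without GLI1 replicate 2 and 35 without GLI2 replicate 2. The mean length was 163 ± 346 kb (SD over 728 deserts), the median 100 kb and the longest 7000 kb. Windows in long deserts were mostly free of peaks altogether: 305 of 344 (88.7%) held none, against 116 of 236 (49.2%) in deserts of 2 to 4 windows and 112 of 608 (18.4%) in single windows. Windows with a sum of 0 also lay together more often than their neighbours in the histogram. Of these, 79.0% had a peak-poor window beside them, against 24.3% of windows with a sum of 1, 15.5% of those with 2 and 12.2% of those with 3.

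The longest desert lay on chromosome 7 from 39400001 to 46400000 and held 0 peaks in each of the 4 lists over 7 Mb. The last peak before it ended at 39345000 and the next began at 46418401, which leaves 7073.4 kb without a peak of either factor. For comparison, the 134347 gaps between neighbouring peaks of any list had a median of 10.6 kb on the autosomes. The runner-up lay on the same chromosome from 20700001 to 24200000, 3.5 Mb long. GLI1 replicate 2 had 2 peaks in it and GLI2 replicate 2 had 2, whereas both replicate 1 lists had 0. These GLI1 peaks were at 23462001 to 23463600 and 24120001 to 24121000, and the GLI2 peaks at 21708801 to 21710400 and 21909401 to 21911000. No peak of the GLI1 list overlapped one of the GLI2 list there. The rule left little room for overlap, since each member window holds at most 1 peak over all lists.

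Chromosome 8 carried a pair of long deserts that were empty in all 4 lists. The first ran from 20100001 to 22100000 (2 Mb) and the other from 56200001 to 57900000 (1.7 Mb). Between the nearest peaks on either side they spanned 2075 and 1722 kb. A desert of equal length to the former, on chromosome 1 from 85300001 to 87300000, held 1 peak. It was a GLI2 replicate 1 peak of 1400 bp at 85334801 to 85336200, with a deposited score of 60.2, and it lay 35.5 kb inside the edge. The other 3 lists had 0 peaks in that desert.

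The rest of the 10 longest deserts each held 2 or 3 peaks. Chromosome 2 had one from 175000001 to 176800000, with 1 peak from either replicate 2 list and 0 from the replicate 1 lists. Its GLI2 peak sat 5.6 kb from the desert's start, so the stretch between its peaks, from 175006201 to 176553400, measured 1547.2 kb. On chromosome 5, the desert from 94200001 to 95900000 had 1 peak in each GLI1 list and 0 in each GLI2 list. These GLI1 peaks began at 94936601 (replicate 1, score 40.4) and 94896601 (replicate 2). They lay in different windows, as the rule requires of any 2 peaks in a desert. Chromosome 12 followed with 23100001 to 24700000, where GLI1 replicate 2 had 2 peaks and the other 3 lists had 0. The last of the 10 were again on chromosome 7. The desert from 7400001 to 8800000 held 2 peaks, both of GLI2 replicate 2, and the desert from 32800001 to 34100000 held 1 of GLI1 replicate 2 and 2 of GLI2 replicate 2.

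Together the 10 longest deserts covered 24 Mb in 240 windows, or 20.2% of the members. They held 16 peaks, all between 1000 and 1600 bp wide. Replicate 2 lists, which made up 60.0% of all peaks, supplied 14 of these. The 22 long deserts held 6 peaks of GLI1 replicate 1, 16 of GLI1 replicate 2, 3 of GLI2 replicate 1 and 14 of GLI2 replicate 2. Per Mb these counts came to 0.174, 0.465, 0.0872 and 0.407, against 16.8, 21.9, 10.5 and 19.1 over all eligible windows. GLI2 replicate 1 had no peak in 19 of the 22 long deserts, GLI1 replicate 1 in 17, GLI2 replicate 2 in 13 and GLI1 replicate 2 in 9. Only 4 of the 22 were empty in all 4 lists, namely those of chromosomes 7 and 8 above and one on chromosome 14 from 6100001 to 7300000. The long deserts ranked 11 to 22 were 500 to 1200 kb long and lay on chromosomes 4, 5, 7, 12, 13 and 14.

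Autosomes differed in their share of members and in how far these lay in long deserts or in scattered single windows. The peak-poor share ran from 1.34% on chromosome 10 (95% exact interval 0.783 to 2.14) to 13.6% on chromosome 7 (11.9 to 15.4), with a median of 2.86% over the 19 autosomes. Chromosomes 2, 7 and 9 held 509 members, 42.8% of all, on 18.6% of the eligible windows. Chromosome 7 had 203 members, of which 141 (69.5%) lay in 5 long deserts, and 39 of its deserts were a single window. Chromosome 9 had 128 members and no long desert at all: its longest was 300 kb, and 91 of its 109 deserts were a single window. Chromosome 2 resembled chromosome 9, with 178 members, 110 single-window deserts among 133, and 1 long desert. Long deserts occurred on 9 autosomes and were missing from 10. On chromosomes 16, 18 and 19 no desert exceeded 100 kb.

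**Figure D2:**
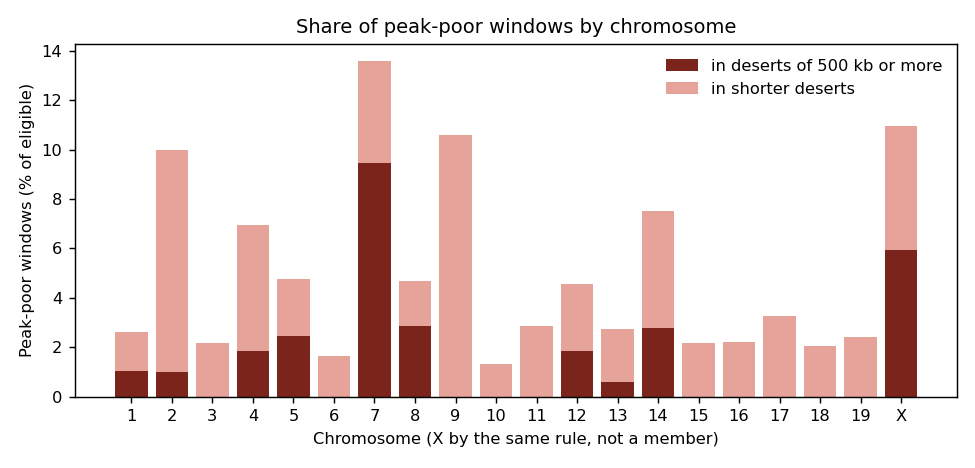
Peak-poor windows as a percentage of the eligible windows of each chromosome, split into windows in deserts of 500 kb or more (dark) and in shorter ones (light). Chromosome 7 reached 13.6% mainly through long deserts, whereas chromosome 9 reached 10.6% with none; X is shown by the same rule for comparison.

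Outside their members, chromosomes 2 and 9 were also thinner in peaks, and chromosome 7 less so. The windows of chromosome 9 with 2 or more peaks held 5.10 on average and those of chromosome 2 held 5.15. Those of chromosome 7 came next from below with 7.05, against a median of 7.37 over the autosomes. The lists did not contribute equally to this. On chromosome 9, windows without a peak made up 43.6% in GLI1 replicate 1, 55.0% in GLI2 replicate 1 and 29.8% in GLI2 replicate 2, but 19.8% in GLI1 replicate 2. On chromosome 2 the corresponding shares were 37.7%, 48.0% and 36.7%, against 21.8% in GLI1 replicate 2. GLI1 replicate 2 was thus 2.89 percentage points above its share over all autosomes on chromosome 9 and 4.98 on chromosome 2, the smallest excess of the 4 lists on both.

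Peak-poor windows made up a larger share near the start of the autosomes, where mouse chromosomes carry the centromere, than near the end. Within 5 Mb of the first peak 88 of 950 windows were peak-poor (9.26%, 95% exact interval 7.50 to 11.3), and within 5 Mb of the last peak 18 of 950 (1.89%, 1.13 to 2.98). Chromosome 14 alone supplied 38 of the 88, and without it the share at the start was 5.56% (4.15 to 7.26) and that at the end 2.00% (1.19 to 3.14). These intervals treat windows as independent, although 48.8% of all members had a peak-poor neighbour. The share was higher at the start on 11 autosomes, higher at the end on 3 and equal on 5. Some of these rest on few windows: on chromosomes 4, 15 and 19 there was 1 member at the start and 0 at the end. Chromosome 16 had 2 and 1, and chromosome 18 had 1 and 2. The span of each autosome was also divided into 10 equal sections. The share was 7.37, 7.87 and 7.71% in the 3 sections nearest the start, between 4.01 and 4.55% in the next 5, 1.82% in the ninth and 2.83% in the last. Long deserts held 235 of the 553 members in the 3 sections nearest the start. Without windows in long deserts the share was 5.08% in the section nearest the start and 4.22 and 3.90% in the next 2. It lay between 2.82 and 4.01% in the 5 sections that followed and at 1.82 and 2.08% in the last 2.

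**Figure D3:**
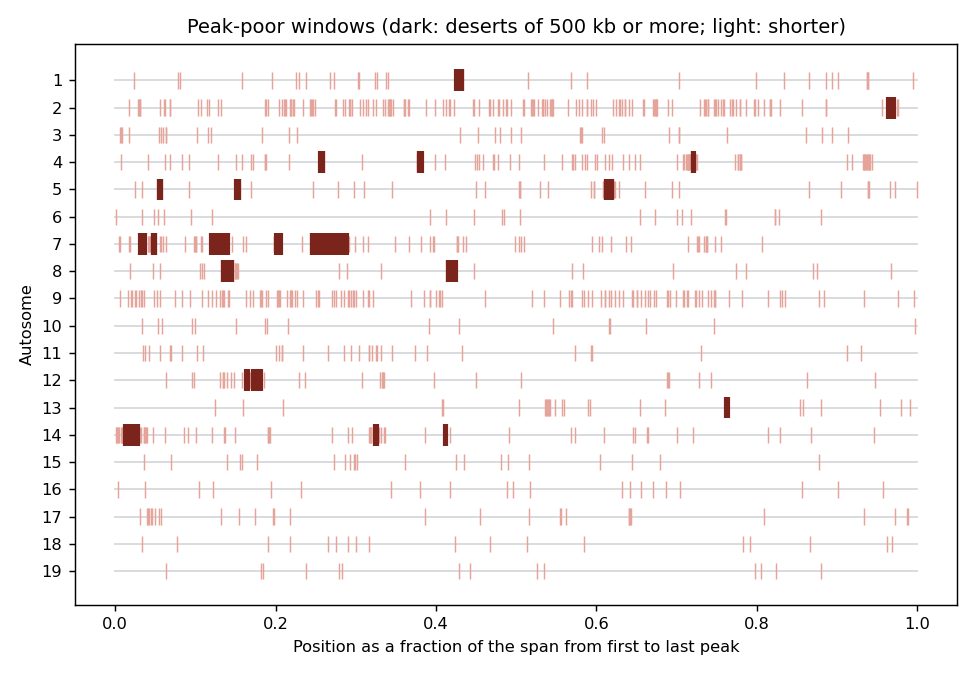
Peak-poor windows along the 19 autosomes, with position given as a fraction of the span from the first to the last peak; dark bars are windows in deserts of 500 kb or more and light bars those in shorter ones. Chromosome 7 carries 5 dark blocks before 0.3 of its span. Chromosomes 2 and 9 carry many light bars from near the start onward, unevenly spaced and sparser toward the end.

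Several long deserts were neighbours. On chromosome 7 all 5 lay between 7400001 and 46400000, where 162 of 390 windows (41.5%) were peak-poor, against 41 of 1104 (3.71%) on the rest of the chromosome. Of the 249 windows between them 21 were peak-poor (8.43%), and these 249 windows held 6.50 peaks on average, against 6.82 on the rest of the chromosome. On chromosome 12, between 22100001 and 24700000, 24 of 26 windows were peak-poor, in deserts of 600 and 1600 kb and 2 further windows between them, and the 2 windows that were no members held 2.5 peaks on average, against 8.23 elsewhere. Chromosome 14 had deserts from 5000001 to 6000000 and from 6100001 to 7300000, separated by 1 window, and smaller ones of 700 and 500 kb at 42800001 and 53400001.

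To see whether emptiness carried over to a library that took no part in the choice, each list was held out in turn. Windows with 0 peaks over the other 3 lists were selected, and the peaks of the held-out list were counted in them. The held-out list was thinner in these windows every time. GLI1 replicate 1 had 0.608 peaks per window in the 852 windows chosen without it and 1.72 in the others, a ratio of 0.353. GLI1 replicate 2 had 0.837 in 953 windows and 2.24 elsewhere, a ratio of 0.373. GLI2 replicate 1 had 0.181 in 625 windows and 1.07 elsewhere, a ratio of 0.168, and GLI2 replicate 2 had 0.737 in 920 windows and 1.96 elsewhere, a ratio of 0.376. The mean ratio was 0.318 ± 0.100 (SD, n = 4 lists), below 1 in 4 of 4 lists. The two-sided exact sign-flip permutation p was 0.125, the smallest that 4 lists allow, and the 4 choices share lists, so they are not fully independent.

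Seen as windows, 533 were empty in all 4 lists, and they were 62.6% of those chosen without GLI1 replicate 1 (95% exact interval 59.2 to 65.8), against 21.2% of all windows empty in that list. The share was 55.9% (52.7 to 59.1) against 16.9% for GLI1 replicate 2, 85.3% (82.3 to 88.0) against 36.9% for GLI2 replicate 1 and 57.9% (54.7 to 61.1) against 18.2% for GLI2 replicate 2. The size of the ratio moved with the number and length of the lists that chose the windows. With all lists reduced to the length of the shortest it was 0.554 ± 0.0398 (SD, n = 4). For this, replicate 1 lists kept their highest scores and replicate 2 lists their widest peaks. Leaving a GLI1 list out of the procedure gave 0.504 (without replicate 1) and 0.542 (without replicate 2). Leaving out a GLI2 list gave 0.519 (without replicate 1) and 0.531 (without replicate 2).

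GLI1 and GLI2 lists did not separate by this measure. Factor cannot be told apart here from the 1e-4 and 1e-5 of the labels, and the shortest list was a GLI2 list. The ratio was 0.363 ± 0.0144 for GLI1 and 0.272 ± 0.147 for GLI2 (SD, n = 2 each). The difference lay within the spread of the GLI2 replicates (exact permutation p = 1, two-sided, with 0.333 the smallest p for 2 against 2). By replicate number, GLI1 exceeded GLI2 by 0.185 in replicate 1, and the difference was -0.00307 in replicate 2. Without GLI2 replicate 1, which leaves a single GLI2 list, the difference turned to -0.114.

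Windows empty for one factor were also thin for the other. The 1466 windows without a peak in either GLI1 list held 0.538 peaks per window of GLI2 replicate 1 and 1.17 of GLI2 replicate 2, which is 0.496 and 0.595 of the density in the other windows. In the 2464 windows without a peak in either GLI2 list, GLI1 replicate 1 had 1.15 and GLI1 replicate 2 had 1.43 peaks per window, ratios of 0.659 and 0.631. Of the windows empty for GLI1, 62.8% were empty in GLI2 replicate 1, against 36.9% of all windows, and 42.6% in GLI2 replicate 2, against 18.2%. Of the windows empty for GLI2, 38.7% were empty in GLI1 replicate 1, against 21.2%, and 34.6% in GLI1 replicate 2, against 16.9%.

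Long stretches stayed empty in the held-out list far more than single windows did. In stretches of 500 kb or more without a peak in the other 3 lists, GLI1 replicate 1 had 12 peaks in 297 windows, GLI1 replicate 2 had 18 in 303, GLI2 replicate 1 had 4 in 284 and GLI2 replicate 2 had 23 in 296. The ratios to the other windows were 0.0235, 0.0265, 0.0131 and 0.0397, a mean of 0.0257 ± 0.0109 (SD, n = 4). In single windows the ratios were 0.634, 0.608, 0.394 and 0.633, a mean of 0.567 ± 0.116, and in stretches of 2 to 4 windows the mean was 0.215 ± 0.114. The ratio in long stretches minus that in single windows was -0.541 ± 0.108 and negative in 4 of 4 lists (two-sided exact sign-flip permutation p = 0.125, the smallest possible with 4 lists). With a list left out the mean in long stretches lay between 0.0420 without GLI2 replicate 1 and 0.0904 without GLI1 replicate 2, and with lists of equal length it was 0.0549.

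**Figure D4:**
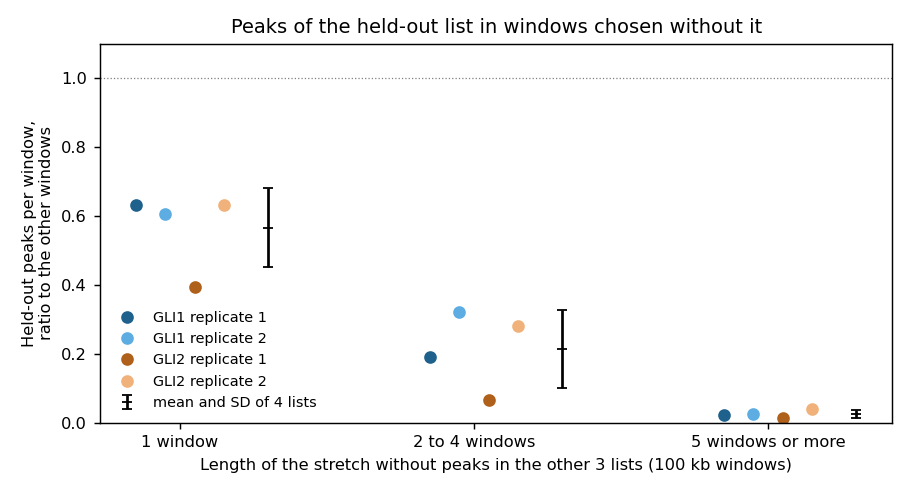
Peaks per window of the held-out list in windows without a peak in the other 3 lists, divided by its mean in the remaining windows (vertical axis), by the length of the stretch (horizontal axis); points are the 4 lists, and the bar is their mean and SD. All 4 lists lie between 0.394 and 0.634 in single windows and between 0.0131 and 0.0397 in stretches of 5 windows or more.

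On chromosomes 2 and 9 the scattered single windows carried over less than on the other 17 autosomes pooled. For this the reference was the mean of the windows of the same chromosome that were not chosen. On these chromosomes the held-out ratio in single windows was 1.04 in GLI1 replicate 1 and 0.754 in GLI1 replicate 2. For GLI2 it was 0.867 in replicate 1 and 0.944 in replicate 2. The mean was 0.901 ± 0.120 (SD, n = 4). On the other 17 autosomes the values in the same order were 0.617, 0.571, 0.283 and 0.624, a mean of 0.524 ± 0.162. The ratio was higher on chromosomes 2 and 9 in 4 of 4 lists, by 0.377 ± 0.169 (two-sided exact sign-flip permutation p = 0.125, the smallest possible). These chromosomes were singled out after their values were seen. On chromosome 7 the ratio in single windows was 0.409 in GLI1 replicate 1 and 0.479 in GLI1 replicate 2, over 26 windows each. For GLI2 it was 0.415 in replicate 1, over 18 windows, and 0.589 in replicate 2, over 26. Over chosen windows of every stretch length, the mean of the lists on chromosomes 2 and 9 was 0.738 ± 0.0876. These chromosomes were not alike. Chromosome 2, which holds a long desert, had 0.695 and 0.651 for GLI1 and 0.549 and 0.579 for GLI2, replicate 1 first. Chromosome 9 had 1.07 and 0.749 for GLI1 and 0.915 and 1.05 for GLI2. On chromosome 7, where most chosen windows lay in long stretches, the corresponding ratios were 0.0765 and 0.0978 for GLI1 and 0.0546 and 0.153 for GLI2, replicate 1 first.

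The surroundings of deserts were thin in peaks as well, and within 600 kb the mean was lower for long deserts than for single windows, a difference that was not tested. At 200 kb from the edge of a long desert, the peaks per window were 0.583 ± 0.155 of the mean of the same chromosome (SD, n = 4 lists). At 400 kb the value was 0.580 ± 0.220, at 600 kb 0.792 ± 0.142 and at 1000 kb 0.909 ± 0.127. Around single windows the value was 0.842 ± 0.0644 at 200 kb and 0.877 ± 0.0644 at 600 kb, above that of long deserts, and 0.894 ± 0.0431 at 1000 kb, about equal to it. The lists differed beside long deserts. Relative to its mean over all eligible windows, the density at 200 kb was 0.405 in GLI1 replicate 1, 0.613 in GLI1 replicate 2, 0.519 in GLI2 replicate 1 and 0.773 in GLI2 replicate 2. The replicate 1 list was lower for both factors, and replicate number cannot be told apart from the s50 and s20 of the labels. Windows directly beside a desert hold at least 2 peaks by construction. Of the 44 windows at 200 kb from a long desert, 31.8% were themselves peak-poor, against 4.93% of all.

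**Figure D5:**
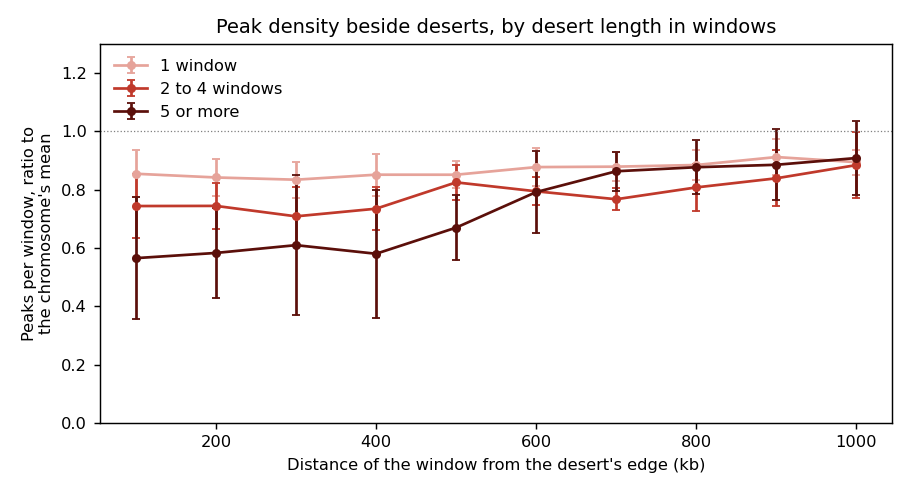
Peaks per window beside deserts, divided by the mean of the same chromosome (vertical axis), against the distance of the window from the desert's edge in kb (horizontal axis), for deserts of 1 window, 2 to 4 windows and 5 or more; points are means and bars SDs over the 4 lists. Beside long deserts the value was 0.583 at 200 kb and 0.909 at 1000 kb, and beside single windows 0.842 and 0.894.

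The 655 peaks that stood alone in a member window had median widths and scores close to those of their lists. GLI1 replicate 1 supplied 172 of them, GLI1 replicate 2 206, GLI2 replicate 1 73 and GLI2 replicate 2 204. These are 26.3, 31.5, 11.1 and 31.1% of the lone peaks, where the lists made up 24.6, 32.0, 15.4 and 28.0% of all peaks. For lone peaks and for all peaks alike, the median width was 1400 bp in GLI1 replicate 1, and each of the remaining lists had 1200 bp. Peaks of 1000 bp, the narrowest in any list, were 30.2% of lone and 30.3% of all peaks. The median score was 46.9 for lone and for all peaks of GLI1 replicate 1, and 57.2 for lone against 58.8 for all peaks of GLI2 replicate 1. The lowest score was 40.0 in GLI1 replicate 1 and 50.0 in GLI2 replicate 1, so scores do not compare between these lists. Medians this close to the lowest value can look alike and tell little of a difference. In GLI1 replicate 1 the upper quartile of the scores was 52.3 for lone and 52.9 for all peaks, and in GLI2 replicate 1 it was 61.0 and 64.8. The highest score of a lone peak was 75.7 for GLI1 and 82.3 for GLI2, and in windows with 2 peaks it was 96.6 and 102.5. Over all peaks the highest finite score was 1608 in GLI1 replicate 1 and 1208 in GLI2 replicate 1, from far more peaks (40597 and 25347). Scores of replicate 2 lists were nearly all 0 and were not used. Lone peaks of 2000 bp or more numbered 24 (3.66%), against 4.56% of all peaks, and the widest measured 4200 bp.

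Within long deserts the lone peaks came mainly from the replicate 2 lists. Of 39 such peaks 30 (76.9%, 95% exact interval 60.7 to 88.9) were in a replicate 2 list, where these lists made up 60.0% of all peaks. In single-window deserts the share was 60.5% (56.0 to 64.8), and in deserts of 2 to 4 windows 66.7% (57.5 to 75.01). The lone peaks were let through by the rule, and some share a desert. The intervals are therefore no test of a difference from 60.0%. Nor can replicate number be told apart from the s50 and s20 of the labels. GLI1 lists gave 22 of the 39 (56.4%), near their 56.6% of all peaks. The lone peak with the highest score of GLI1 replicate 1 lay on chromosome 14 from 43136201 to 43138000, in a desert of 700 kb, with its nearest neighbour 195.2 kb away. That of GLI2 replicate 1 lay on chromosome 5 from 54548801 to 54550400, in a single window, 56.7 kb from the next peak. Over all lists the median distance from a lone peak to the nearest other peak was 45.8 kb, against 3.8 kb for all peaks, a difference that follows from the choice.

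The X chromosome is no part of the rule, but it was read the same way because the series concerns X inactivation. Of its 1634 eligible windows 179 were peak-poor (10.95%, 95% exact interval 9.48 to 12.6), and 97 of these lay in 8 deserts of 500 kb or more. This placed X between chromosome 9 and chromosome 7 by share. The part of its members in long deserts, 54.2%, was also between the 0% of chromosome 9 and the 69.5% of chromosome 7. The longest X desert ran from 26400001 to 30300000 (3.9 Mb) and held 3 peaks, all of GLI1 replicate 2. Next came 121400001 to 122600000, 1.2 Mb without a peak in any list.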

How the data were processed

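Anti-FLAG ChIP libraries of GLI1 and GLI2 cells (2 replicates each, grouped by their titles) were analysed through 1 deposited peak list per library; the 4 input libraries were not used here. The submitters' processing notes name CASAVA 1.7, the aligner BWA and the build mm9, but no peak caller. The lists, which have no header, give chromosome, start, end and a score per peak. The score is the authors' deposited value without a stated unit, and it served only to describe lone peaks and for alternatives.

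Windows, deserts, flanks and held-out ratios were computed with pandas 2.3.3, numpy 2.4.6 and scipy 1.17.1 under Python 3.11.15, and drawn with matplotlib 3.10.9. The code was tested on simulated lists with planted empty stretches. Desert edges are window edges, printed from 1. Long deserts have at least 5 windows. The text names the 10 longest deserts (ties by fewer peaks, then by position), and other places as stated. Shares carry exact (Clopper-Pearson) intervals. Tests were exact sign-flip or label permutations over the 4 lists. The rule for the windows, the named deserts and the comparisons were chosen with earlier results of these data known. The tests on gene lists, GC content and repeats that were planned for the case of an mm9 annotation were not run.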

Additional observations from a re-analysis of the deposited data

How the results depend on the processing

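The direction of the held-out ratio (below 1) held under all 13 alternatives, between 0.0702 with 200 kb windows and 0.554 with lists of equal length. It was 0.538 with 50 kb windows and 0.520 with 0 or 1 peaks allowed over the other lists. No design here can pass 0.05, so this says nothing of significance. The held-out difference GLI1 minus GLI2 ranged from -0.114 to 0.191 when a list was left out. With the replicate number as a block it stayed 0.0908 (exact sign-flip permutation p = 1), and 2 pairs cannot show whether the numbers pair the samples. The share of peak-poor windows depended on nearly every choice: 21.6% with 50 kb and 1.76% with 200 kb windows, 7.28% with replicate 1 scores of at least 50, 14.7% with lists of equal length, 2.21% for a sum of 0 only, 9.89% for a sum of 0 to 2, 7.16% with no edge condition and 4.18% without chromosomes 2 and 9 (added after seeing the data). Leaving out a list gave 6.72 to 10.9%. For X the first 6 of these settings gave 31.2, 5.76, 13.6, 26.6, 6.92 and 17.9%, and leaving out a list gave 13.0 to 19.5%. On the autosomes the score cut thinned only GLI1 replicate 1, since the lowest score of GLI2 replicate 1 was 50.003. The mean length of deserts was 573 kb with 200 kb windows, 75.5 kb with 50 kb windows, 237 kb for a sum of 0 only and 236 kb with no edge condition, and 142 to 194 kb under the other alternatives. The number of deserts ranged from 74 with 200 kb windows to 6892 with 50 kb windows. The other-factor ratio was 0.725 with 50 kb windows, 0.254 with 200 kb windows and 0.736 with lists of equal length. Leaving a list out dropped its factor from the choice of windows. Each such run therefore gave back 1 of the 4 main ratios nearly unchanged, between 0.495 and 0.660, and is no check of their mean. The median width of lone peaks was 1400 bp with 200 kb windows, with lists of equal length and without chromosomes 2 and 9, and 1200 to 1400 bp with a list left out. Lists of equal length kept the widest peaks of the replicate 2 lists, so a greater width under that setting is built in. For flanks, the alternatives read the value 200 kb from long deserts against the mean over all eligible windows, 0.577 in the main setting. It kept within its SD of 0.156 under 11 alternatives, between 0.431 and 0.724. The lowest came with 200 kb windows, where the window read lay directly beside the desert and held at least 2 peaks by construction.

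The longest desert kept all its windows under 14 alternatives, and its length stayed between 7000 and 7100 kb. Over the 10 longest, 130 of 139 values kept at least 90% of the desert. Most settings could not lower the part kept of any desert, because removing peaks, halving windows or loosening the rule leaves a peak-poor window peak-poor. It could fall with a sum of 0 only, 200 kb windows, windows starting at 50 kb or assignment by any overlap. In that order the lowest values over the 10 were 76.9% (the last of them), 82.4%, 88.2% and 100%. The number of deserts of 500 kb or more ranged from 20 to 42 under 15 alternatives, against 22. Read depth was not given, so peaks missed for lack of reads cannot be told apart from absent peaks.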
